A study of Mus musculus with 2 samples.

Results

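Hlf, Dbp, Tef, Nr1d1, Nr1d2, Per1, Per2, Per3, Arntl and Clock, 10 of the 53380 features counted in cells of the mouse sciatic nerve, form the core and the output of the circadian clock. They were chosen by name after their CPM in injured and intact endothelial cells of these libraries had been seen, so those levels are given as a description, with no test. The injured library held cells from the bridge that forms at the lesion of adult sciatic nerves, taken 7 days after injury, and the intact library held cells from uninjured sciatic nerves of adult mice. In both, an R26-TdTomato reporter was switched on by Cdh5(PAC)-CreERT2, an inducible Cre recombinase under an endothelial promoter, and TdTomato-positive, CD45-negative cells were sorted from pooled, enzyme-digested nerves. There was 1 library per condition. The sources used here do not state the number or sex of the animals, the kind of injury or the hour of collection. Animals, hour of collection, digestion, sorting and sequencing therefore cannot be told apart from injury, no test between conditions was possible, and every interval below is a 95% interval that covers counting error only.

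The injured library held 2023 barcodes and 27157892 UMIs (unique molecules counted), with a median of 8918 UMIs per cell, and the intact library 1618 barcodes, 9401203 UMIs and a median of 3932.5. The libraries shared 298 barcodes. A cell was left out where its barcode had at least 5 times its UMIs in the other library, which removed 145 injured and 116 intact cells. The authors' classes with names that begin with EC_ then held 1274 injured and 718 intact endothelial cells, and 77 and 66 of these still had a shared barcode. All 10 pan-endothelial markers, such as Pecam1 and Cdh5, were above 10 CPM (a gene's UMIs per 1000000 UMIs of the summed cells) in both libraries. The endothelial sums also differed in markers of other kinds: the 10 pericyte and smooth muscle markers summed to 220 CPM injured and 1067 intact, the 8 perineurial ones to 156 and 632, the 5 erythroid ones to 44.6 and 325, and the 16 cycling ones to 1029 and 183, with no marker at 0 except 1 cycling gene in intact cells. Xist, which females express, was at 939 CPM in injured and 282 in intact endothelial cells, and Y-linked Ddx3y at 19.8 and 55.9 CPM, so sex-linked genes differed between the pools as well. The part of these differences in the results below was not tested.

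The clock is a feedback loop that runs in nearly every cell. CLOCK and ARNTL (also called BMAL1) bind DNA as a pair at E-boxes and switch on the Per and Nr1d genes and the output factors Dbp, Tef and Hlf. The PER proteins act with the cryptochromes to block CLOCK and ARNTL, and the REV-ERB receptors encoded by Nr1d1 and Nr1d2 repress Arntl. DBP, TEF and HLF are PAR bZIP factors, which bind D-boxes in the promoters of metabolic and transport genes, and the level of Dbp in peripheral tissues swings strongly over the day, roughly opposite to Arntl.

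RefSeq promoter windows (GRCm38.p6, the 250 bases before a start) were at hand for 9 of the 10 members, as 14 windows. The stretches shown are those outside exons that hold a clock-related motif, with the motif in capitals, 5′ to 3′ on the strand of the gene.
Hlf, chr11:90390918-90390948, minus strand, intergenic, cAMP response element: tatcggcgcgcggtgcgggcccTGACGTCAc
Tef, chr15:81811254-81811303, plus strand, in an intron of Tef, E-box: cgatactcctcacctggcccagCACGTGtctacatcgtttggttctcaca
Per1, chr11:69098761-69098810, plus strand, in an intron of Per1, E-box: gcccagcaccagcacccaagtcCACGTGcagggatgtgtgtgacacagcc
Per3, chr4:151044794-151044892, minus strand, in an intron of Camta1, both D-boxes: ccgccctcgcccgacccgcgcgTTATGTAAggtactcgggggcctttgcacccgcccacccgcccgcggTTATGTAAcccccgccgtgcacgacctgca
The search read both strands for the E-box CACGTG, the D-box as TTATGTAA or TTACGTAA, the REV-ERB core site TAGGTCA and the cAMP response element TGACGTCA. Over 32851 RefSeq windows of this length, 6.02% held CACGTG, 0.819% TTATGTAA, 0.113% TTACGTAA, 2.23% TAGGTCA and 1.55% TGACGTCA. Among the members, Tef and Per1 held CACGTG, Per3 held TTATGTAA at 2 places and Hlf held TGACGTCA 9 bases before its start. A second Tef window also held CACGTG, in an exon. No window of Dbp, Nr1d1, Nr1d2, Arntl or Clock held any of these letters, which says nothing of sites outside the windows.

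In annotated endothelial cells the output factors and the genes that CLOCK and ARNTL drive were lower in the injured library, while Arntl and Clock themselves differed little. Of the 10 members, 6 were at least 2-fold lower after 5 CPM was added to both values (Hlf, Dbp, Tef, Nr1d1, Nr1d2 and Per1) and 0 were at least 2-fold higher. A gene counted as measured where its mean over both libraries reached 10 CPM, which 8268 genes did. Of these, 6.82% were at least 2-fold lower and 4.79% at least 2-fold higher, and since this contrast was known when the members were chosen, nothing is read from their count.

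**Figure D1:**
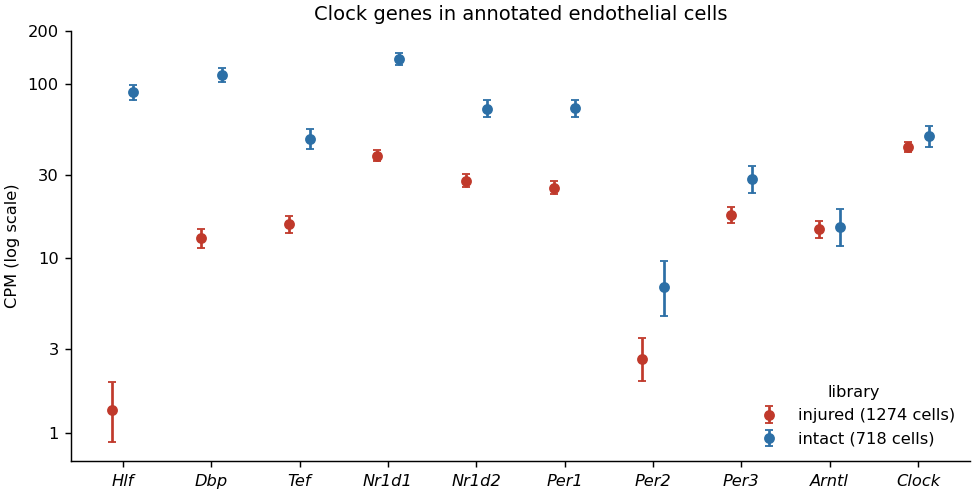
CPM of the 10 clock genes in annotated endothelial cells, on a log scale, with the injured library (red, 1274 cells) left of the intact one (blue, 718 cells). Points are CPM over summed cells and bars are exact Poisson 95% intervals, which cover counting error only. Hlf and Dbp stand farthest apart, and the intervals of Arntl overlap.

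The 3 output factors were at the low end of all genes measured, with 7 of the 8268 below Hlf in log2 ratio, 47 below Dbp and 326 below Tef. Hlf (ENSMUSG00000003949.16, chr11:90336536-90390895, minus strand, positions here and below from GENCODE M21 on GRCm38) had 27 UMIs in injured endothelial cells, or 1.35 CPM (0.890 to 1.97), against 406 UMIs, or 89.4 CPM (80.9 to 98.5), in intact ones. This is 66.2-fold lower (44.8 to 102) and a log2 ratio of -3.89 with 5 CPM added. Without any cell of a shared barcode Hlf had 26 injured and 241 intact UMIs, 46.0-fold lower, a log2 ratio of -3.58. The mix of classes in these sums also differed. Of the 406 intact UMIs, 231 came from the class EC_BAR, which held 181 intact but 36 injured cells. With classes weighted equally the log2 ratio was -3.14. Dbp (ENSMUSG00000059824.12, chr7:45705088-45710203, plus strand), the D-box factor whose daily rhythm is among the widest, had 261 UMIs, or 13.1 CPM, in injured cells against 510 UMIs, or 112 CPM, in intact ones, 8.60-fold lower (7.39 to 10.0). Tef (ENSMUSG00000022389.14, chr15:81802421-81826863, plus strand), the third of the family, had 314 UMIs, or 15.7 CPM, in injured cells against 220 UMIs, or 48.4 CPM, in intact ones, 3.08-fold lower (2.58 to 3.67). Dbp overlaps Sphk2 and Tef overlaps the predicted gene Gm17597 on the other strand. The sources used here do not say whether the counting used strand, so reads of such pairs cannot be told apart.

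The share of cells with a UMI depends on depth, which was greater in the injured library, so it was also read after each cell was thinned to 1000 UMIs. Hlf was seen in 24 of 1274 injured cells (1.88%) and 187 of 718 intact cells (26.0%), and after thinning in 0.629% and 6.64%. The highest count in a cell was 2 UMIs in injured and 8 in intact endothelial cells, and 3 injured cells held at least 2 UMIs against 88 intact ones. These counts were not thinned and include cells of shared barcodes, among them an intact cell with 8 Hlf UMIs of 40013. Dbp was seen in 14.6% of injured and 36.1% of intact cells, and after thinning in 1.73% and 11.1%. Clock was seen in 41.0% of injured and 24.1% of intact cells, but after thinning in 5.27% and 4.72%. No cell type in these libraries is known to lack these genes, so the share that free RNA alone would give could not be set beside these values.

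The REV-ERB receptors were also lower. Nr1d1 (ENSMUSG00000020889.11, chr11:98767932-98775333, minus strand) had 774 UMIs, or 38.7 CPM, in injured endothelial cells against 632 UMIs, or 139 CPM, in intact ones, 3.59-fold lower (3.23 to 3.997). It overlaps Thra, a thyroid hormone receptor gene on the other strand, which was at 44.5 CPM in injured and 102 CPM in intact cells, 2.30-fold lower (2.05 to 2.57). Nr1d2 (ENSMUSG00000021775.11, chr14:18204054-18239127, minus strand), which overlaps no other gene, had 557 UMIs, or 27.9 CPM, in injured cells against 327 UMIs, or 72.0 CPM, in intact ones, 2.58-fold lower (2.25 to 2.97).

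Of the period genes, which encode the negative arm, Per1 passed 2-fold with 5 CPM added and Per2 and Per3 did not. Per1 fell short of 2-fold with cells thinned to 1000 UMIs, at a log2 ratio of -0.70, and with classes weighted equally, at -0.99. Per1 (ENSMUSG00000020893.17, chr11:69095217-69109960, plus strand), also induced by glucocorticoids and cAMP signalling, had 508 UMIs, or 25.4 CPM, in injured cells against 328 UMIs, or 72.2 CPM, in intact ones, 2.84-fold lower (2.47 to 3.27). Per3 (ENSMUSG00000028957.12, chr4:151003652-151044665, minus strand) had 353 UMIs, or 17.7 CPM, in injured cells against 129 UMIs, or 28.4 CPM, in intact ones, 1.61-fold lower (1.30 to 1.97). It lies on the same strand within the annotated span of Camta1. Per2 (ENSMUSG00000055866.9, chr1:91415982-91459324, minus strand) was scarce, with 53 UMIs, or 2.65 CPM, in injured cells against 31 UMIs, or 6.82 CPM, in intact ones, 2.57-fold lower (1.60 to 4.08). It was the only member under the mean of 10 CPM, and 9 of the 10 passed that filter.

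The activators were close to level. Arntl (ENSMUSG00000055116.8, chr7:113207465-113314126, plus strand) had 293 UMIs, or 14.7 CPM, in injured cells against 69 UMIs, or 15.2 CPM, in intact ones, a ratio of 0.965 (0.740 to 1.27). Clock (ENSMUSG00000029238.11, chr5:76209868-76304792, minus strand) had 864 UMIs, or 43.2 CPM, in injured cells against 227 UMIs, or 50.0 CPM, in intact ones, a ratio of 0.865 (0.746 to 1.01). Set against an output gene of the same cells, Arntl had 112 UMIs per 100 Dbp UMIs (94.7 to 133) in injured endothelial cells and 13.5 (10.4 to 17.4) in intact ones.

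**Figure D2:**
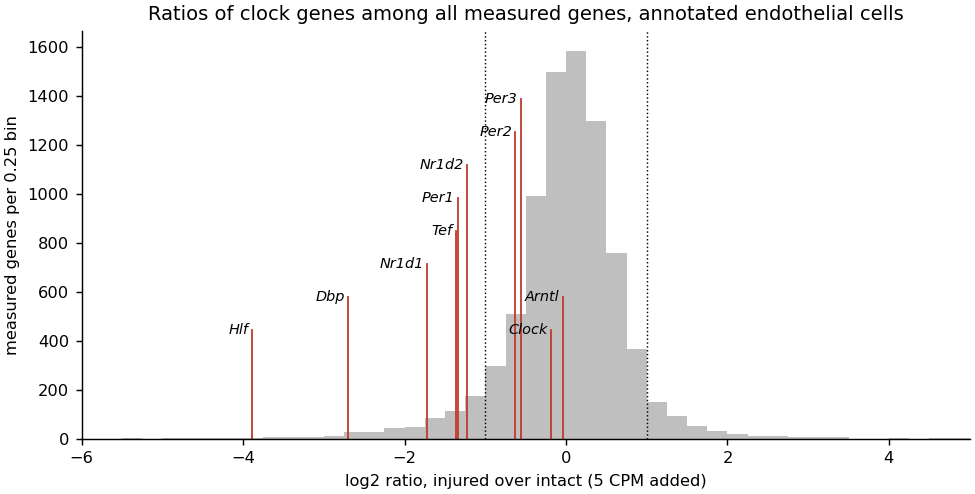
Log2 ratio of injured over intact CPM in annotated endothelial cells, with 5 CPM added. Grey bars count the 8268 measured genes per bin of 0.25, red lines mark the 10 members (Per2 is not among the measured genes), their heights carry no value, and dotted lines mark 2-fold. Hlf at -3.89 and Dbp at -2.70 stand in the left tail, and Arntl at -0.04 and Clock at -0.19 under the centre, whose median is 0.04.

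The same direction was seen within single endothelial classes. After cells were left out, 5 classes held at least 20 cells in both libraries: EC_ART (144 injured, 91 intact), EC_BAR (36, 181), EC_CAP-PV- (76, 128), EC_VEN-PV+ (362, 213) and EC_VEN-PV- (121, 44). In EC_BAR, 47 of the 83 injured cells had been left out as the shallower cell of a shared barcode. The highest injured class was below the lowest intact class for Hlf, Dbp, Tef, Nr1d1, Nr1d2 and Per1, and the classes overlapped for Per2, Per3, Arntl and Clock. They also overlapped for Nr1d1 once every cell of a shared barcode was left out, at 90.2 CPM in injured EC_BAR and 83.2 CPM in intact EC_VEN-PV-. The share of all measured genes set apart in this way was not computed. Since the members were chosen with this contrast known, nothing is read from the number set apart. The 10 most enriched genes of EC_VEN-PV- included no venous marker in the injured library and, in the intact one, 1 venous marker and 4 haemoglobin genes. Its 7 venous markers summed to 3929 CPM injured and 1983 intact, against 812 and 860 in EC_BAR and 989 and 737 in EC_CAP-PV-. Its 10 barrier markers summed to 1089 CPM injured and 7137 intact, so the class differed between the libraries.

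Hlf was lower in injured cells of all 5 classes, with every interval below 1. It was at 1.48 CPM in injured and 94.6 in intact EC_ART, 16.9 and 170 in EC_BAR, 0 and 20.6 in EC_CAP-PV-, 1.26 and 26.0 in EC_VEN-PV+, and 6.27 and 112 in EC_VEN-PV-. Of the 4 classes with injured Hlf UMIs the fold was smallest in EC_BAR, at 10.0-fold lower (4.54 to 27.6) on 6 and 231 UMIs, and in EC_CAP-PV-, with 0 and 10 UMIs, it was at least 7.22-fold lower against a floor of 3 UMIs over the group. With shared barcodes left out, Hlf in EC_ART had 3 injured and 16 intact UMIs, against 57 intact ones with them, and was at 1.52 and 43.6 CPM, 28.7-fold lower. In EC_BAR, with the barrier genes Mfsd2a and Slco1a4 among its top 10 genes, 5 of 36 injured cells held a Hlf UMI and none more than 2, against 87 of 181 intact cells, of which 52 held at least 2. Its top 10 also held the smooth muscle marker Acta2 in the intact library, and Ifit1, Ifit2 and Rsad2 in the injured one. The barrier markers summed to 3590 CPM in its injured and 9669 in its intact cells, and the pericyte and smooth muscle ones to 166 and 1463. The part of these differences in Hlf was not tested.

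Dbp ranged from 9.47 to 39.5 CPM over the 5 injured classes and from 77.2 to 155 CPM over the 5 intact ones, and its interval was below 1 in all 5. Of its 14 UMIs in injured EC_BAR, 6 came from 1 cell, and without that cell it was at 23.3 CPM. Nr1d1 ranged from 32.8 to 90.2 CPM over the injured and from 103 to 163 CPM over the intact classes. Nr1d2, at 25.4 to 35.4 injured and 53.5 to 84.5 intact, and Per1, at 28.0 to 40.4 injured and 69.8 to 76.2 intact, also had an interval below 1 in all 5 classes. Without any cell of a shared barcode the interval included 1 for Per1 in EC_BAR (0.348 to 1.28) and EC_VEN-PV- (0.379 to 1.24) and for Nr1d2 in EC_VEN-PV- (0.294 to 1.002). Tef was at 15.3 to 29.5 CPM injured and 46.7 to 51.5 CPM intact, with an interval below 1 in 3 classes and just across 1 in EC_BAR and EC_CAP-PV-.

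By class, the members at least 2-fold lower numbered 6 of 10 in EC_ART, where 7.31% of all measured genes were, 4 in EC_BAR (6.87%), 4 in EC_CAP-PV- (9.21%), 5 in EC_VEN-PV+ (4.61%) and 5 in EC_VEN-PV- (6.34%). In these classes 0 members were at least 2-fold higher, beside 6.07% of measured genes in EC_ART, 6.29% in EC_BAR, 5.76% in EC_CAP-PV-, 3.77% in EC_VEN-PV+ and 7.91% in EC_VEN-PV-. Without any cell of a shared barcode the counts of lower members were 6, 4, 5, 5 and 4 in the same order of classes. Clock was the one member with an interval above 1 in a class, at 76.1 CPM (27 UMIs) in injured and 46.3 CPM (63 UMIs) in intact EC_BAR, a ratio of 1.64 (1.01 to 2.62). Of its injured UMIs there, 5 came from 1 cell, and without that cell it was at 67.8 CPM and the ratio was 1.47 (0.858 to 2.41). In the other 4 classes its ratio ran from 0.610 in EC_CAP-PV- to 1.48 in EC_ART, each with an interval across 1.

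**Figure D3:**
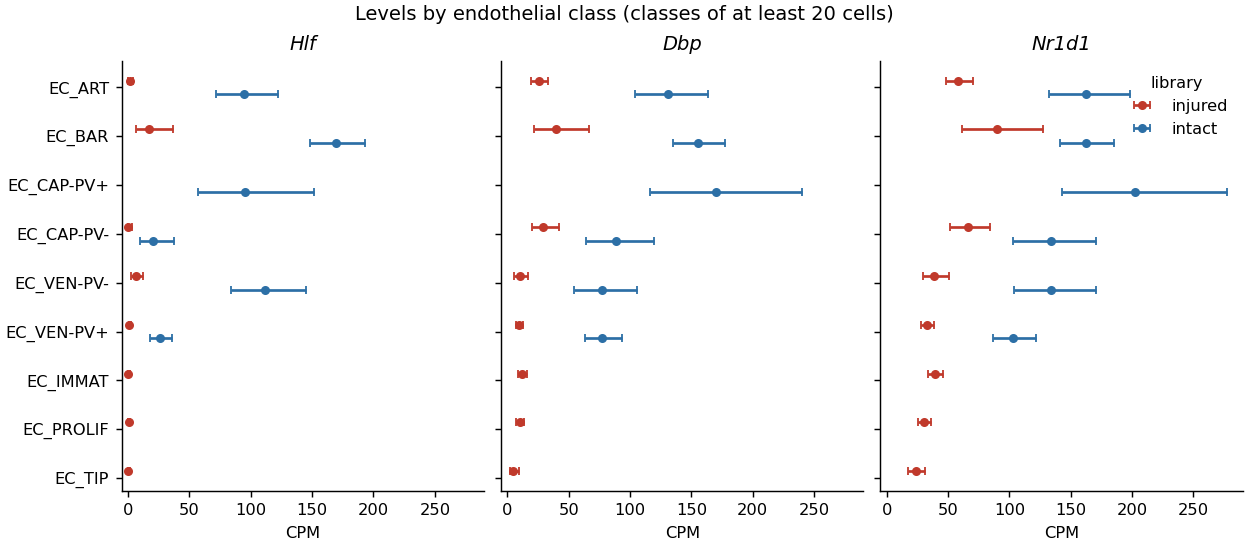
CPM of Hlf, Dbp and Nr1d1 in endothelial classes of at least 20 cells, with injured (red) above intact (blue) in each class and exact Poisson 95% intervals. EC_CAP-PV+ has too few injured cells, and EC_IMMAT, EC_PROLIF and EC_TIP too few intact cells, to be shown in both. In the 5 classes with both libraries the injured value is the lower one for all 3 genes.

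Among the 6 intact classes of at least 20 cells, Hlf spanned a wide range. It was highest in EC_BAR at 170 CPM, then 112 in EC_VEN-PV-, 95.7 in EC_CAP-PV+ and 94.6 in EC_ART, and lowest in EC_VEN-PV+ at 26.0 and EC_CAP-PV- at 20.6. EC_BAR was above EC_VEN-PV- (ratio 1.52, 1.13 to 2.08) and EC_ART above EC_VEN-PV+ (ratio 3.64, 2.35 to 5.71), while other neighbours in this order did not differ beyond counting error. Among cells with no shared barcode EC_ART was at 43.6 CPM and EC_VEN-PV+ at 23.6 CPM, a ratio of 1.85 (0.929 to 3.55), and EC_ART was instead below its neighbour EC_VEN-PV- at 102 CPM (ratio of EC_VEN-PV- to EC_ART 2.34, 1.22 to 4.65). The highest class was 8.25-fold above the lowest (4.403 to 17.4). The same span was 2.20-fold for Dbp (1.33 to 3.62), 1.37-fold for Tef, 1.19-fold for Per1 and 1.25-fold for Clock, the last 3 with intervals that include 1. It was 5.06-fold for Arntl (1.64 to 14.7), highest in EC_CAP-PV+ and lowest in EC_BAR, while Per2 had 0 UMIs in EC_ART. The top genes of EC_CAP-PV+ held no capillary marker. Its 7 capillary markers summed to 9132 CPM in the intact library, above 2161 in EC_ART but below 14359 in EC_VEN-PV+. These markers alone therefore do not set that class apart.

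In the injured library, 3 further classes were large enough to read. EC_TIP, with the tip cell genes Esm1 and Cxcr4 among its top genes, had 0 Hlf UMIs among 1970991, which allows up to 1.52 CPM, and 5.07 CPM of Dbp. EC_PROLIF, with cell cycle genes such as Top2a, had 2 Hlf UMIs and 9.99 CPM of Dbp, and EC_IMMAT had 1 Hlf UMI and 12.0 CPM of Dbp. Dbp was 7.78-fold (3.21 to 19.6) and Nr1d1 3.78-fold (2.34 to 6.05) higher in injured EC_BAR than in EC_TIP. The intact library held 4, 11 and 4 cells of EC_IMMAT, EC_PROLIF and EC_TIP, too few to compare.

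Cells without a class were read apart, to see how far the differences extend beyond endothelial cells of the same libraries. They numbered 516 injured and 738 intact after shallower cells were left out, and were clustered without the members. Over all of them 4 members (Hlf, Dbp, Tef and Nr1d1) were at least 2-fold lower and 0 at least 2-fold higher, beside 6.78% of measured genes lower and 6.3% higher. Clusters 0, 1, 2, 3, 9 and 13, each with the matrix gene Dcn among its top genes, were fibroblast-like, with 244 injured and 449 intact cells. The 12 fibroblast markers summed to 33939 CPM injured and 22084 intact there, and the 10 pan-endothelial ones to 425 and 334. The 8 perineurial markers summed to 2056 CPM injured and 6746 intact, the 10 pericyte and smooth muscle ones to 1171 and 3211, and the 16 cycling ones to 1177 and 158, and their part in the fibroblast-like values was not tested. Different clusters held most of them: 138 of the injured cells were in cluster 2, and 163 and 157 of the intact cells in clusters 0 and 1. Cluster 3, with 25 injured and 119 intact cells, was the only one with at least 20 cells of both.

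In fibroblast-like cells 4 of the 10 members (Hlf, Dbp, Tef and Nr1d1) were at least 2-fold lower in the injured library and 0 at least 2-fold higher, beside 7.09% of 8829 measured genes that were lower and 8.42% that were higher. Hlf was at 9.45 CPM in injured and 77.4 CPM in intact cells, 8.19-fold lower (5.68 to 12.2). Dbp was at 34.9 CPM injured and 87.5 CPM intact, 2.50-fold lower (2.02 to 3.12). Tef was at 32.6 CPM injured and 108 CPM intact, 3.31-fold lower (2.67 to 4.12), and Nr1d1 at 37.8 CPM injured and 109 CPM intact, 2.88-fold lower (2.35 to 3.55). These 4 genes were thus also lower in the fibroblast-like sums, which drew mostly on different clusters in each library. The part of that difference in clusters was not tested. Per1 was at 37.2 CPM injured and 46.2 CPM intact, a ratio of 0.806 (0.632 to 1.03), and Nr1d2 at 38.4 and 54.8 CPM, a ratio of 0.701 (0.556 to 0.881). With shared barcodes left out, the interval of Per1 lay below 1 (0.518 to 0.906) and that of Nr1d2 included 1 (0.596 to 1.02). Clock was at 41.8 CPM injured and 72.8 CPM intact, a ratio of 0.574 (0.464 to 0.709).

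In cluster 3 the differences were smaller. The fibroblast markers summed to 43843 CPM in its injured and 21768 in its intact cells, and the pericyte and smooth muscle ones to 1935 and 6269, so its cells differed between the libraries too, and the part of this was not tested. Of the 10 members 0 were at least 2-fold lower or higher, beside 7.25% of measured genes lower and 5.62% higher. Hlf was at 24.2 CPM (7 UMIs) injured and 32.1 CPM (41 UMIs) intact, a ratio of 0.756 (0.286 to 1.70). Dbp was at 125 CPM (36 UMIs) injured and 87.6 CPM (112 UMIs) intact, but 17 of the 36 UMIs came from 1 injured cell of 43585 UMIs with a shared barcode, and without that cell it was at 77.5 CPM. Without any cell of a shared barcode, 24 injured and 90 intact cells remained, and the ratio was 0.743 (0.421 to 1.25) for Dbp, 0.412 (0.197 to 0.783) for Tef and 0.493 (0.270 to 0.848) for Nr1d1, with Tef 2-fold lower. In the other fibroblast-like clusters Hlf was at 8.11 CPM injured and 106 CPM intact, and Dbp at 26.8 and 87.4 CPM.

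Pericyte and smooth muscle-like cells, cluster 6, led by Rgs5, Notch3 and Pdgfrb, numbered 39 injured and 32 intact, with no shared barcode. Of the members 7 were at least 2-fold lower, beside 18.2% of measured genes, and 1, Arntl, on 3 injured and 0 intact UMIs, at least 2-fold higher, beside 13.7%. Hlf had 1 UMI in injured and 5 in intact cells, 17.9-fold lower (2.00 to 846), Dbp 7 and 11, 5.62-fold lower (1.99 to 17.1), Nr1d1 12 and 14, 4.17-fold lower (1.79 to 9.88), and Nr1d2 10 and 11, 3.93-fold lower (1.52 to 10.3). Per1 was at 58.4 CPM injured and 62.7 CPM intact. Lymphatic-like cells, cluster 4, led by Ccl21a and Lyve1, numbered 20 injured and 114 intact, and 5 members were at least 2-fold lower and 0 higher, beside 10.8% of measured genes lower and 11.6% higher. There Dbp had 4 UMIs in injured and 27 in intact cells, 2.90-fold lower (1.01 to 11.4), with 3 of the 4 from 1 cell of a shared barcode, Nr1d1 6 and 38, 2.72-fold lower (1.14 to 7.87), and Hlf 0 and 9, with a ratio interval that reached 1.18. Without cells of shared barcodes, the lymphatic-like interval of Dbp included 1.

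The class INTERMEDIATE, with Dcn among its top genes in both libraries and S100a8 and S100a9 in the injured one, held 88 injured and 46 intact cells. There 7 members were at least 2-fold lower and 1, Arntl, at least 2-fold higher, beside 16.5% of measured genes lower and 14.9% higher. Its Nr1d1 was at 62.4 CPM (15 UMIs) injured and 266 CPM (37 UMIs) intact, 4.26-fold lower (2.28 to 8.35). Of its 23 intact Dbp UMIs, 14 came from 1 cell with a shared barcode, and without shared barcodes 5 members were at least 2-fold lower.

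**Figure D4:**
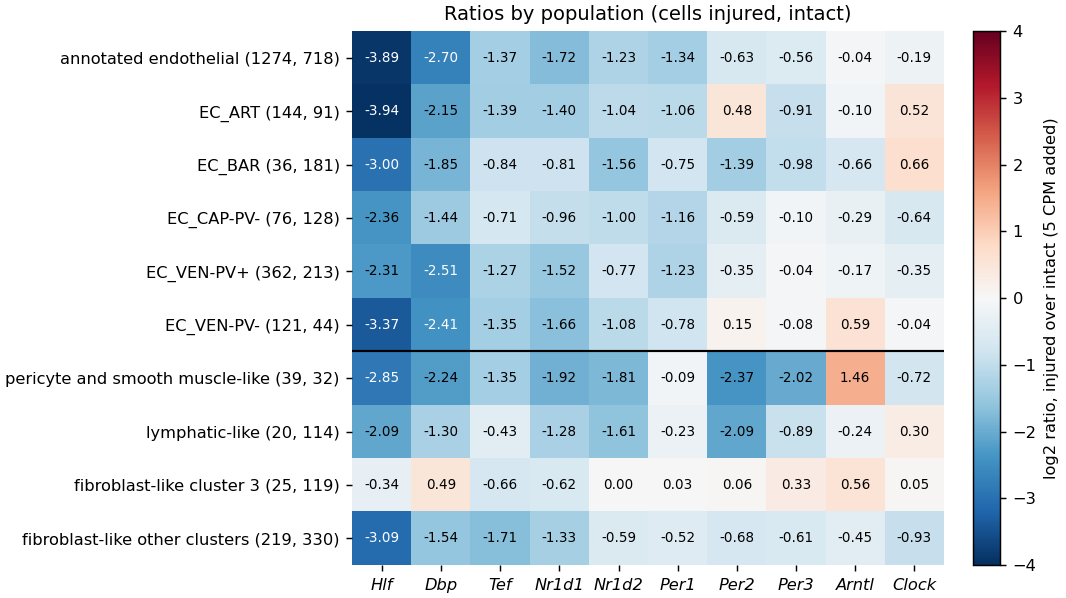
Log2 ratio of injured over intact CPM, with 5 CPM added, for the 10 members in annotated endothelial cells, in 5 endothelial classes and, below the line, in cells without a class; cell numbers are given as injured, then intact. Blue is lower and red higher in the injured library. Hlf is below 0 in every population drawn, and Dbp in all but cluster 3, where 17 of 36 injured UMIs came from 1 cell. Values on few UMIs, such as Per2 and Arntl in pericyte-like cells, carry wide counting errors.

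The size of the shift was compared between endothelial and other cells as a difference of log2 ratios, without added CPM, and with a normal interval from the UMI counts. The endothelial values were known when the members were chosen, which can bias these differences toward a lower endothelial ratio. The differences are therefore given as a description, with no test. Against fibroblast-like cells, the endothelial ratio was lower for 4 of the 10 members, by -3.01 for Hlf (-3.78 to -2.25), -1.78 for Dbp (-2.15 to -1.41), -0.86 for Nr1d2 (-1.23 to -0.48) and -1.20 for Per1 (-1.59 to -0.80). It was higher for Clock, by 0.59 (0.23 to 0.96). The other 5 were not separated, among them Tef at 0.10 (-0.29 to 0.49) and Nr1d1 at -0.32 (-0.64 to 0.01). Without any cell of a shared barcode the same 4 were lower and Clock higher. Depth also mattered. With cells thinned to 1000 UMIs and 5 CPM added, the log2 ratio of Per1 was -0.70 in endothelial and -1.07 in fibroblast-like cells, the reverse order. In the same setting it was -2.46 and -2.15 for Dbp, -2.91 and -2.14 for Hlf and -1.69 and -0.68 for Nr1d2. The classes in the endothelial sum differed between the libraries, with 260, 162 and 100 injured against 4, 11 and 4 intact cells of EC_IMMAT, EC_PROLIF and EC_TIP, and 36 against 181 of EC_BAR. With classes weighted equally the endothelial log2 ratio of Hlf was -3.14 in place of -3.89, both with 5 CPM added. Within EC_BAR alone Hlf was not separated from fibroblast-like cells, at -0.29 (-1.57 to 0.99), nor were Dbp, at -0.65 (-1.49 to 0.19), and Per1, at -0.51 (-1.39 to 0.37), while Nr1d2 was lower, at -1.22 (-2.25 to -0.19), and Nr1d1 and Clock were higher, by 0.68 (0.07 to 1.29) and 1.52 (0.80 to 2.23). Against cluster 3 the endothelial ratio was lower for 7 members, and for 3 (Hlf, Dbp and Nr1d2) without shared barcodes. Against lymphatic-like cells it was lower for Dbp and Per1 of 8 members, and without shared barcodes for Tef and Per1 of 7. Against pericyte and smooth muscle-like cells it was lower for Per1 alone of the 8 members that had UMIs in both libraries, by -1.40 (-2.74 to -0.07), and for Hlf the difference was -1.89 (-5.04 to 1.26). Without shared barcodes it was also higher there for Per3. The share of all measured genes that would be separated in these comparisons was not computed, so nothing is read from these counts of members.

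**Figure D5:**
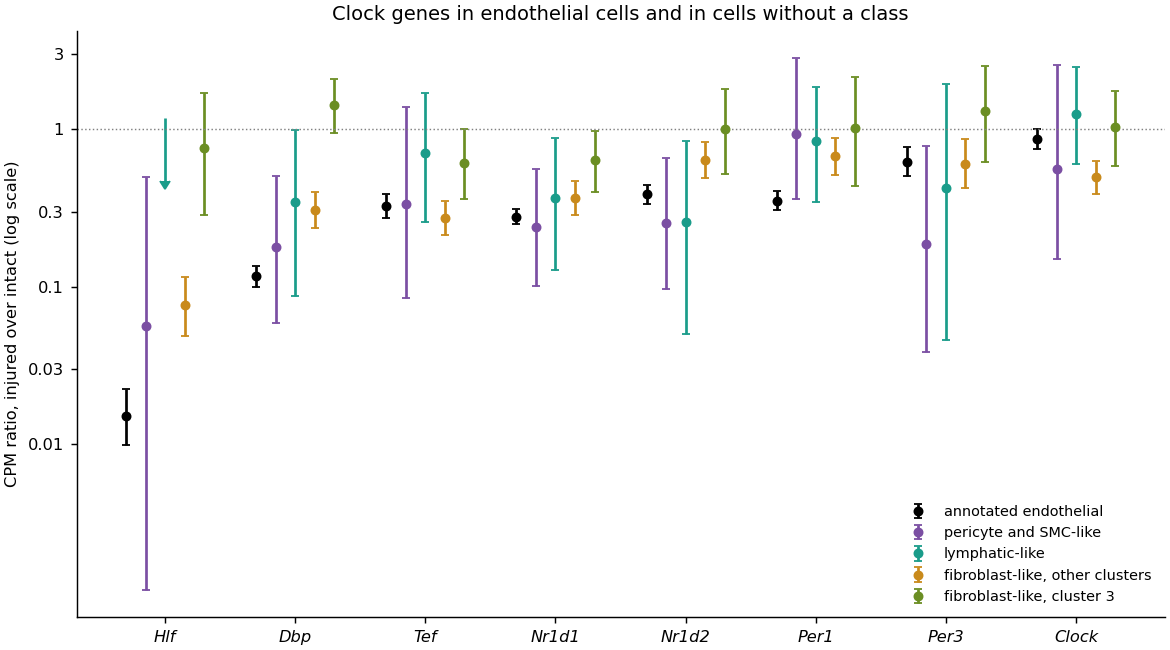
CPM ratio of injured over intact, on a log scale, for 8 members in annotated endothelial cells (black) and 4 groups of cells without a class, with exact 95% intervals from the counts. Where injured cells had 0 UMIs, an arrow points down from the upper 95% limit, and its place is not the ratio. For Hlf, Dbp, Nr1d2 and Per1 the endothelial ratio lies below that of the fibroblast-like clusters, while for Tef and Nr1d1 the intervals of endothelial cells and of the fibroblast-like clusters other than 3 overlap.

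The balance of Arntl and Dbp was also read by cell group, as a description. Fibroblast-like cells had 35.2 Arntl UMIs per 100 Dbp UMIs (24.3 to 50.3) in the injured library and 17.1 (12.4 to 23.3) in the intact one, and endothelial cells the 112 and 13.5 given above. In intact cells these intervals overlap between both cell groups, and in injured cells they do not. Without added CPM the log2 ratio of Arntl was -0.05 in endothelial and -0.28 in fibroblast-like cells, so this number mostly restates that of Dbp. The endothelial values were known when the members were chosen, so it is no further result. Single injured classes did overlap with fibroblast-like cells: the number was 28.8 (15.1 to 52.0) injured and 6.33 (2.00 to 15.4) intact in EC_ART, and 48.4 (24.3 to 92.4) and 20.9 (8.97 to 43.5) in EC_CAP-PV-. It was 211 (147 to 308) injured and 29.8 (19.3 to 44.9) intact in EC_VEN-PV+, but 7.14 (0.169 to 46.9) injured and 4.74 (2.24 to 8.89) intact in EC_BAR, on 1 and 10 Arntl UMIs.

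Other clock genes were read as a list of 26, of which 18 were measured in endothelial cells. Of these, 3 were at least 2-fold lower in the injured library and 0 higher, beside 6.82% and 4.79% of all measured genes. Their median log2 ratio was -0.35 against 0.04 for all measured genes. Rora, the activator that competes with the REV-ERB receptors, was at 15.9 CPM injured and 46.2 CPM intact, 2.92-fold lower (2.44 to 3.48). Bhlhe40, a repressor at E-boxes, was at 107 CPM injured and 262 CPM intact, 2.45-fold lower (2.28 to 2.63), and Sirt1, a deacetylase, at 18.5 and 46.0 CPM, 2.49-fold lower (2.09 to 2.96). The largest ratio upward was that of Tipin, at 48.6 CPM injured and 28.6 CPM intact, a ratio of 1.70 (1.41 to 2.06). The cryptochromes, named after their values were seen, differed in direction, with Cry1 at a ratio of 1.37 (1.03 to 1.86) and Cry2 at 0.564 (0.471 to 0.678). In fibroblast-like cells 1 of 18 was at least 2-fold lower, Nampt, an enzyme of NAD synthesis, at 24.3 CPM injured and 71.3 CPM intact, and 1 higher, Nfil3, the D-box repressor, at 31.8 and 11.3 CPM. Of all measured genes there, 7.09% were lower and 8.42% higher, so nothing is read from 1 gene in each direction.

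Per1 and some clock outputs also respond to stress hormones and to cell handling, so lists of such genes were set beside them, with Dusp1 on both the glucocorticoid and the immediate early list. Of 13 measured glucocorticoid response genes, 7 were at least 2-fold lower in injured endothelial cells and 1 higher, beside 6.82% and 4.79% of all measured genes. Lcn2 was at 15.6 CPM injured and 201 CPM intact, Mt1 at 37.5 and 265 CPM, Sult1a1 at 50.2 and 170 CPM and Tsc22d3 at 35.7 and 112 CPM, while Fkbp5 was at 39.8 CPM injured and 14.5 CPM intact. In fibroblast-like cells 3 of 13 were lower, with Tsc22d3 at 56.4 CPM injured and 310.5 CPM intact, and 4 were higher, with Angptl4 at 87.0 CPM injured and 10.7 CPM intact. Of all measured genes there, 7.09% were lower and 8.42% higher.

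Of 17 immediate early genes, which switch on within minutes of a stimulus such as tissue digestion, 13 were at least 2-fold lower in injured endothelial cells and 0 higher, and the list summed to 8818 CPM injured and 24231 CPM intact. Egr1 was at 338 CPM injured and 1918 CPM intact, Klf4 at 363 and 1547 CPM. In fibroblast-like cells 0 of the 17 were lower and 1 higher, beside 7.09% and 8.42% of all measured genes. The higher one was Egr3, at 112 CPM injured and 45.9 CPM intact, and the list summed to 11401 and 10640.5 CPM. Members of the list went both ways there, with an Egr1 ratio of 0.565. Of 8 heat shock genes, 3 were at least 2-fold lower in injured endothelial cells and 0 higher, with sums of 1208 CPM injured and 2632 CPM intact. Both endothelial counts of this paragraph stand beside 6.82% of all measured genes lower and 4.79% higher. The part of these lists in the endothelial values was not tested.

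Genes with a pattern most like Hlf, Dbp or Arntl were sought over 16 sums of at least 20 cells, 1 per class and library (9 injured, 7 intact), among 5883 genes that averaged 20 CPM or more over them. The 16 sums share 2 libraries, so Pearson's r of log2(CPM + 5) is also given within each library. Hlf was most like Tdrp (r = 0.952; 0.828 within injured and 0.833 within intact sums), Socs1 (0.947; 0.357 and 0.959), Clstn1 (0.935; 0.532 and 0.822), Mertk (0.929; 0.830 and 0.807) and Ier5l (0.924; 0.725 and 0.532). Dbp was most like Gas6 (0.966), Fam117a (0.966), Inpp5f (0.965), Ephx1 (0.956) and Clstn1 (0.955), with r of 0.802 to 0.955 within injured and 0.155 to 0.743 within intact sums. Within injured and within intact sums, r of Dbp was 0.919 and 0.865 with Nr1d1, 0.787 and 0.705 with Tef and 0.427 and 0.641 with Hlf. It was 0.187 and 0.880 with Nr1d2, 0.054 and 0.679 with Per3, -0.352 and 0.535 with Per2 and 0.705 and 0.097 with Clock. With Per1 it was 0.642 and -0.751, so the members did not all go with Dbp within each library. Arntl was most like Ptgs1 (0.860), Polk (0.841), Pip4k2a (0.809), Lhx6 (0.798) and Scai (0.797), with r of 0.838 to 0.954 within injured and 0.725 to 0.875 within intact sums. Its r with Dbp was -0.06 over all sums, -0.47 within injured and -0.19 within intact ones.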

How the data were processed

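Single-cell RNA was sequenced from 1 library of sorted nerve cells per condition. The authors deposited counts of UMIs per feature and barcode, with no normalization, and a table of classes. The matrices carry the mark of Cell Ranger 3.0.2, per the file headers. Per the submitters' processing notes, Seurat 4.0.1 and Cell Ranger 6.1.2 were used too, with GRCm38 and mm10 as builds. Of the 53380 feature IDs, 50604 (94.8%) matched GENCODE M21 in ID and version; Tef matched in ID only.

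The members and the gene lists were chosen with earlier results of these data known. For each population and library, UMIs were added up over its cells and expressed as CPM with exact Poisson intervals; ratios carry exact conditional binomial intervals, and the call was 2-fold with 5 CPM added. The call was read over genes whose mean reached 10 CPM. Thinning drew 1000 UMIs per cell, without replacement, and left out 3 injured and 40 intact endothelial cells that were shallower. Cells without a class were clustered in scanpy 1.11.5 (2000 variable genes without the members, 30 components, 15 neighbours, Leiden resolution 1, seed 1) into 15 clusters. A cluster was named from at least 3 detected markers by fold over annotated endothelial cells. It stayed unnamed if its median mitochondrial share was above 20%, if it was shallow, or if its pan-endothelial sum was above 20% of that in annotated endothelial cells, limits that were set after the data were seen. Unnamed clusters held 213 injured and 143 intact cells. No doublet caller was run here, and the sources used here do not say whether doublets were removed before deposit. The genes named are the 10 members, up to 4 list genes of the largest ratio per direction, and the 5 genes most like Hlf, Dbp and Arntl. The scripts were tested on simulated counts. Alternatives varied the added CPM, the cell filters, the treatment of shared barcodes, depth, scaling and the clustering. Python 3.11.15, numpy 2.4.6, scipy 1.17.1 and pandas 2.3.3 were used.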

Additional observations from a re-analysis of the deposited data

Results flagged for a closer look

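Clock in EC_BAR endothelial cells was higher in the injured library, with a ratio of 1.64 (1.01 to 2.62) on 27 injured and 63 intact UMIs (1.47, 0.858 to 2.41, without 1 cell that held 5 of the 27), while in fibroblast-like cells it was lower, at 0.574. It was singled out because these 2 cell groups moved in opposite directions. The difference of their log2 ratios, with the 1 cell kept, was 1.52 (0.80 to 2.23, counting error only, with no replicate), which is no test of a contrast picked in this way. In cluster 3, the only fibroblast-like cluster with at least 20 cells of both libraries, Clock was near level, at a log2 ratio of 0.05 with 5 CPM added. The median depth was 7906 UMIs in injured and 4682 in intact EC_BAR cells.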

How the results depend on the processing

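In endothelial cells the count of members at least 2-fold lower, 6 in the main setting, lay between 4 and 7 in 12 of 13 alternatives: 4 with 20 CPM added (where 3.73% of all measured genes were lower, against 6.82% in the main setting), 7 with 1 CPM added (8.12%), and 5 with cells thinned (7.53%) or classes weighted equally (4.63%). Restricting to members at a mean of at least 50 CPM left 2, Dbp and Nr1d1, and both were at least 2-fold lower. In fibroblast-like cells the count was 4 and lay between 3 and 6, except in cluster 3 alone, an alternative chosen after seeing the data, where it was 0 and the log2 ratio of Dbp was 0.49, the opposite sign. With all fibroblast-like cells thinned to 1000 UMIs, Arntl and Per1 also passed 2-fold, beside 12.3% of all measured genes (7.09% in the main setting), and with 20 CPM added (3.77%) or without cycling cells (6.29%) Dbp did not. Of 240 values of single members under the alternatives, 182 moved by less than their counting interval, 57 by more, and 1, Dbp in cluster 3, was past 2-fold in the main setting and took the opposite sign. Among the 182 and 57, 13 values not past 2-fold in the main setting also took the opposite sign, of Arntl and Clock in endothelial cells and of Arntl, Clock, Per1, Per2 and Per3 in fibroblast-like cells. Hlf in endothelial cells ran from -5.26 to -2.36 (log2), the extremes set by the CPM added. The median log2 ratio of measured genes, by which scaling to it shifts all values, was 0.05 in endothelial cells and passed 0.1 in EC_VEN-PV- alone, at 0.11. Keeping shallower cells could not be read for fibroblast-like cells, since these had not been clustered. No paired analysis was possible because there is 1 library per condition. Depth limits Per2 everywhere and all members in pericyte- and lymphatic-like cells, whose intervals are wide.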

Other observations

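Bhlhe41, a repressor at E-boxes named here after its values were seen, lay under the mean of 10 CPM in endothelial cells. It had 10 UMIs in injured and 50 in intact cells, a ratio of 0.0454 (0.0205 to 0.0907), and in fibroblast-like cells it was at 30.1 CPM injured and 27.8 CPM intact.

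TdTomato, the reporter of the sort, was at 96.5 CPM in injured and 79.0 CPM in intact endothelial cells, and at 44.4 and 44.7 CPM in fibroblast-like cells.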
